A study of Mus musculus with 19 samples.

Results

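The nuclear receptor transcription factors are described here by 33 genes that were chosen by name, out of 24130 genes listed in at least 1 library of the layers of mouse primary somatosensory cortex (S1). The mice were male C57BL/6 animals of 56 days with no treatment and no altered gene. The cortex was cut under visual guidance into 6 segments, from A at the surface (mostly layers 1 to 3) through B (layer 4), C and D (upper and lower layer 5) and E (layer 6) to F (layer 6b). The RNA of segment B was pooled by litter into the libraries B1 and B2 (4 mice each). Each other segment gave 1 library, pooled from the same 8 mice, so the segments are not independent groups of animals. Replicates thus exist in segment B alone (n = 2), where litter and library cannot be told apart. The segments are strips of whole tissue that hold neurons, glia and vessels and need not end at a layer border. In such tissue, fewer cells of a type and less RNA per cell cannot be told apart.

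Nuclear receptors are proteins that bind DNA directly and change the transcription of nearby genes, in most cases when a small fat-soluble molecule such as thyroid hormone, retinoic acid, a steroid or an oxysterol sits in a pocket of the receptor. Many of them work as pairs with a retinoid X receptor (RXR), steroid receptors mostly pair with themselves, and orphan receptors have no settled natural ligand. Without ligand, several of them hold corepressor proteins on DNA, and with ligand they exchange these for coactivators. In the cortex the family is known for the effects of thyroid hormone on myelination and neuronal maturation, for the response to stress hormones, for the daily clock and, through Nr2f1, for the division of the cortex into areas.

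Levels are given in FPKM, fragments scaled by the length of the gene model and by the mapped fragments of the library, which allows levels to be compared between genes of different length, and each has a deposited 95% interval for its estimation within a library. Where 7 values follow each other they stand in the order A, B1, B2, C, D, E, F. The libraries hold an estimated 31.4 M to 75.2 M fragments, with A the shallowest and B2 the deepest, and the median interval spanned 10.8% to 16.8% of the FPKM. Genes of the mitochondrial genome took from 5.03% (F) to 21.8% (A) of the summed FPKM, and B1 (7.76%) and B2 (18.2%) stood apart from each other in this respect. The scale of a library relative to the median gene ran from 0.849 in A to 1.14 in F, so that in FPKM the median gene was 0.43 lower on the log2 scale in A than in F, and differences between A and F are read against this shift. A gene is called classifiable where its widest interval is at most 50% of its mean over the 7 libraries, which held for 11409 genes and for 17 of the 33 members.

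Of the 33 members, 30 had a mean of at least 0.1 FPKM and 26 a mean of at least 1 FPKM. The 3 below 0.1 FPKM were Vdr, Esr2 and Nr5a2. Vdr, the vitamin D receptor, had a mean of 0.0967 FPKM, from 4 estimated fragments in D to 41.5 in B2. It was highest in B1, at 0.203 FPKM (interval 0 to 0.501), the only library in which its interval reached 0. Esr2, estrogen receptor beta, lay between 0.0061 and 0.0421 FPKM, from 0.5 to 5 estimated fragments per library. Nr5a2, an orphan receptor known from liver and early embryo, was listed in B2 alone, at 0.00773 FPKM from 2 estimated fragments. These 3 genes were thus at or near the limit of detection at this depth, and no order of segments is read from them.

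The levels of the others spanned more than 3 orders of magnitude. The sum over the members ran from 468 FPKM in B2 to 662 FPKM in A. Thra alone gave 35.8% (B1 and B2) to 59.2% (F) of this sum, and its mean of 269 FPKM lay at the 99.4th percentile of genes at or above a mean of 0.1 FPKM. After Thra came Nr2f1 with a mean of 65.4 FPKM, Nr1d1 with 35.6 FPKM, Rxrb with 29.7 FPKM, Nr1h2 with 20.9 FPKM, Nr3c1 with 20.3 FPKM and Esrra with 20.1 FPKM. At the lower end of the 30 were Rxrg with a mean of 0.835 FPKM, Esrrb with 0.58 FPKM, Ppara with 0.579 FPKM and Esr1 with 0.187 FPKM. The plot of levels by library shows that the difference between members was far larger than the difference between segments for any of them.

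**Figure D1:**
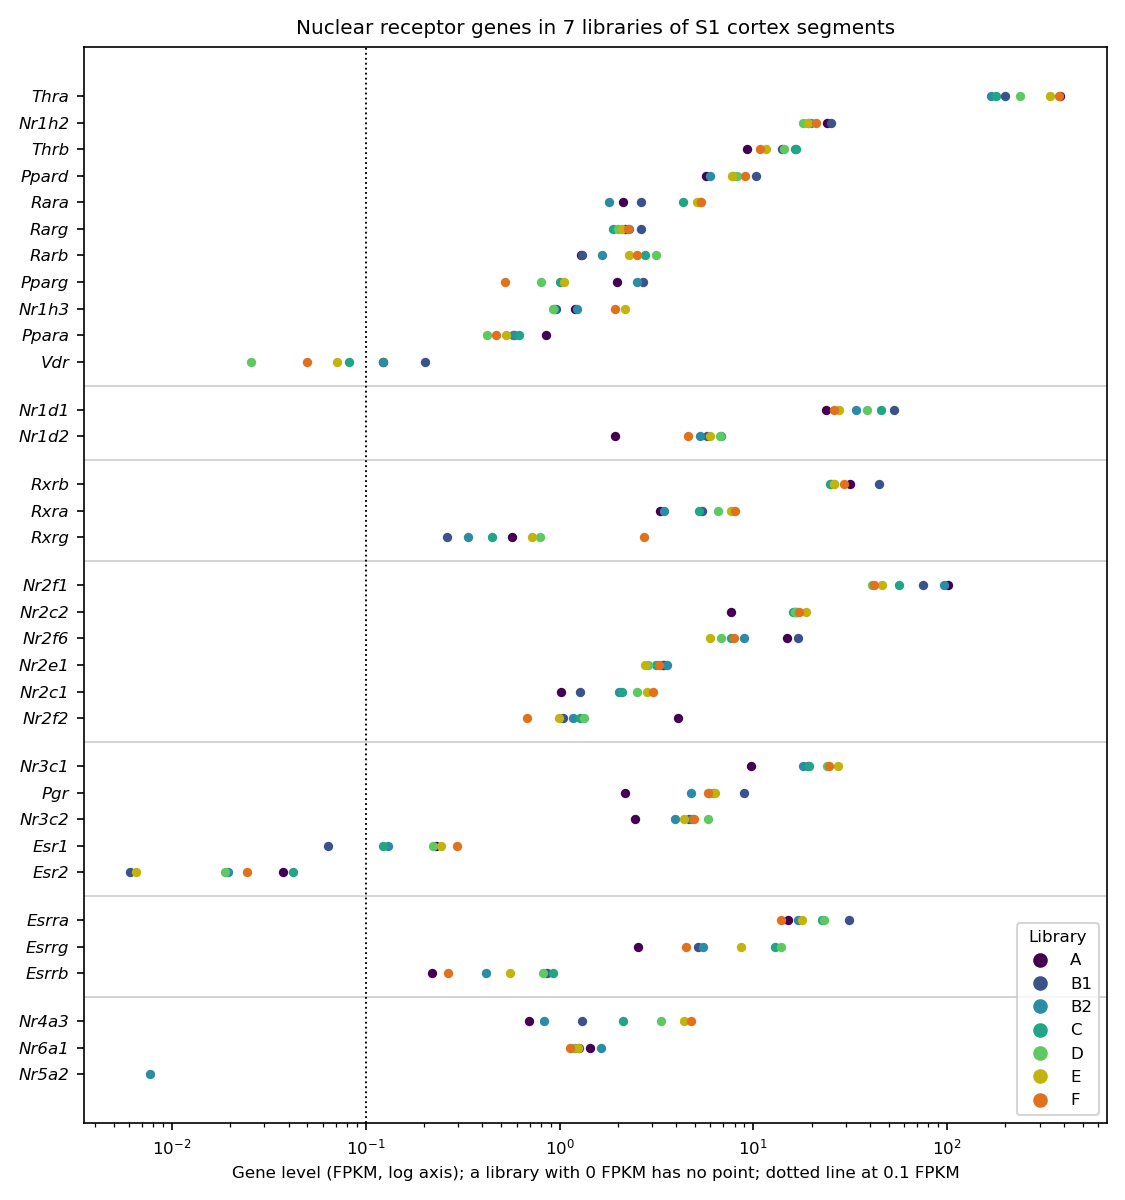
Level of each of the 33 members in the 7 libraries (horizontal log axis, FPKM per gene; 1 point per library, coloured by library; rows grouped by role and ordered by mean). Thra, with a mean of 269 FPKM, lies to the right of every other member, and Vdr, Esr2 and Nr5a2 have means below the dotted line at 0.1 FPKM.

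Thyroid hormone receptors come first by level. Thra, which encodes thyroid hormone receptor alpha, was at 385, 198, 168, 179, 238, 339 and 376 FPKM. The level was high at both edges of the cortex and low in B and C (ratio of highest to lowest segment 2.14). Thrb, which encodes thyroid hormone receptor beta, was at 9.22, 14.1, 16.3, 16.5, 14.3, 11.6 and 10.8 FPKM. Its order was the other way round, with the highest values in B and C and the lowest in A. Neither gene passed the test of a trend with depth described below (adjusted p = 0.0596 for Thra and 0.0938 for Thrb), although the intervals of Thra did not overlap between C and D, D and E, or E and F.

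Thra makes more than 1 protein by alternative splicing of its last coding exons. The isoform of 410 codons encodes the receptor that binds hormone, and that of 492 codons encodes a variant with another end that is known not to bind it. In the reference models (GENCODE M21, GRCm38) both have the same letters over the first 1111 coding bases, which hold 370 whole codons, and then part on chromosome 11. The coding strand around that point is printed because it is where reads tell these forms apart. The 24 matching bases are in lower case, and the 36 bases that follow in each form are in capitals. The window of the isoform of 410 codons is unbroken (chr11:98764383-98764442, plus strand). That of the isoform of 492 codons crosses a splice (chr11:98764383-98768193). The last matching base lies at position 98764406 in the former and past the splice, at 98768157, in the latter, so it matches by letter only.
Thra, 492 codons: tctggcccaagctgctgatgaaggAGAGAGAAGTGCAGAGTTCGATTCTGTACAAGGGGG
Thra, 410 codons: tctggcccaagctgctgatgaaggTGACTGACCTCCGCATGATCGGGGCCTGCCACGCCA

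The form that does not bind hormone was the more abundant in each library. The isoform of 492 codons was at 160, 140, 82.9, 104, 131, 153 and 180 FPKM. The isoform of 410 codons was at 38.1, 28.4, 25.3, 22.5, 23.6, 27.1 and 23.1 FPKM. The lowest value of the isoform of 492 codons was that of B2, 1 litter of segment B. The isoform of 410 codons was highest in A, with an interval (35.8 to 40.4 FPKM) above that of every other library. Its share of the summed isoform FPKM of the gene was 14.3% in B1 and 15.1% in B2, against 9.9% in A and 6.14% in F. These shares also depend on the further models below. The share of the isoform of 492 codons was likewise largest in B1 (70.7%), and was 49.4% in B2, 41.5% in A and 47.8% in F. No preference of segment B for the form that binds hormone is read from them. Another isoform (413 codons) matches the same 1111 coding bases and differs after them. Its estimated level was 96, 29.8, 59.4, 53.4, 83.4, 121 and 136 FPKM, and the overlap of its end with Nr1d1 is given below. For this model the 2 litters of segment B differed more than B2 and C did, with a share of 15% in B1 and 35.5% in B2. A short model (535 nt) was listed in A, E and F alone, at 78.6, 37.8 and 37.6 FPKM. The 3 longer models were classifiable, and the short one was not.

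**Figure D2:**
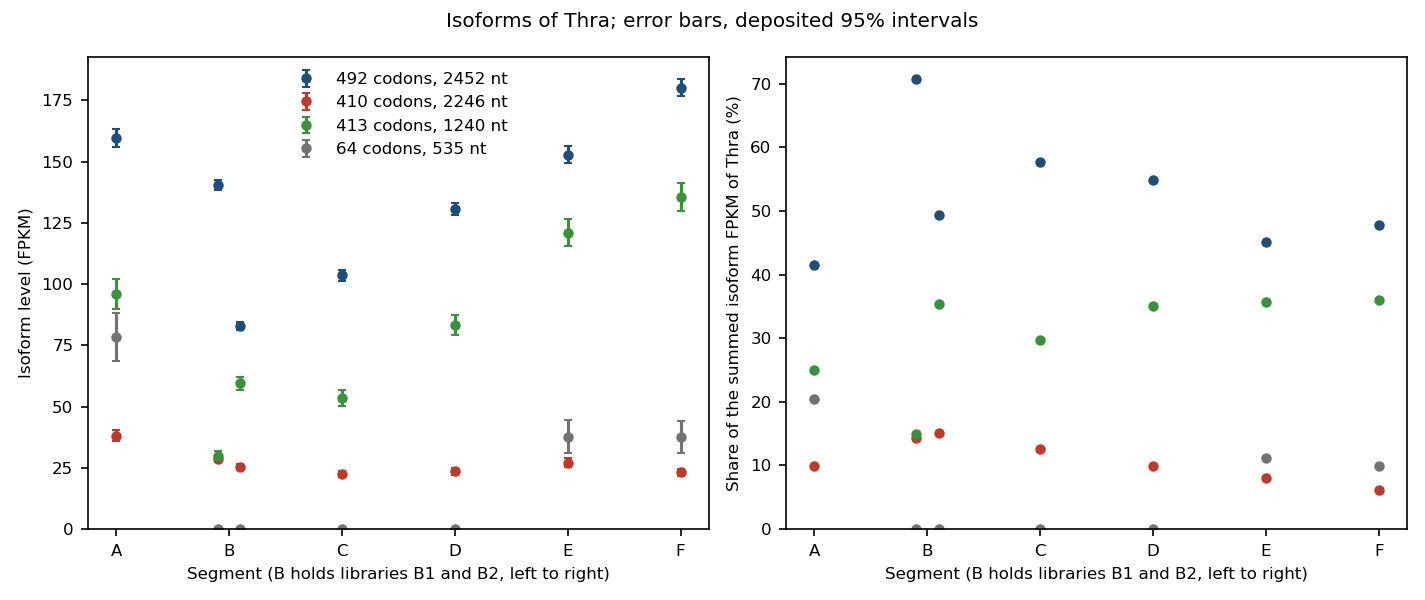
Isoforms of Thra by segment (horizontal axis, A to F; B1 and B2 side by side). Left, level in FPKM with the deposited 95% interval; right, share of the summed isoform FPKM in percent; points at 0 are libraries in which the isoform is not listed. The isoform of 492 codons lies above the isoform of 410 codons in all 7 libraries. The share of the isoform of 410 codons is largest in B1 and B2 (14.3% and 15.1%), and that of the isoform of 492 codons is largest in B1 (70.7%).

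The end of Thra lies over the end of Nr1d1, which is read from the other strand, and the 2 genes overlap by 1075 bases in the annotation used by the authors. Of the exonic bases of the isoform of 492 codons, 263 (10.7%) lie in an Nr1d1 exon of the reference models. The isoform of 413 codons has 130 such bases (10.5%), and the isoform of 410 codons has none. The model of 413 codons is 1240 nt long, of which 1111 coding bases match the other forms. The 130 bases are thus about all of the end that sets it apart. The library preparation did not keep the strand, so reads in the overlap cannot be assigned to 1 of the genes from their strand. The estimated level of the isoform of 413 codons therefore rests on an end that lies in the overlap. It was lowest in B1 (29.8 FPKM), where Nr1d1 was highest (53.2 FPKM). In F it was highest, at 136 FPKM, with Nr1d1 at 26.2 FPKM. The part of reads from Nr1d1 in the level of this isoform was not tested. This isoform gave 15% (B1) to 36% (F) of the summed isoform FPKM of Thra. The short model gave a further 20.4% in A, 11.1% in E and 9.98% in F. The gene level of Thra and its ratio between segments carry the limits of both models. Nr1d1 itself was at 35.6 FPKM on average, against 269 FPKM for Thra.

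The 2 clock repressors Nr1d1 and Nr1d2 (Rev-erb alpha and beta) bind heme and repress transcription of Arntl, a central clock gene. Nr1d1 was at 23.8, 53.2, 33.7, 45.5, 38.7, 27.8 and 26.2 FPKM. A was the lowest library and B1 the highest, and both C and D lay between the litters of B. Nr1d2 was at 1.92, 5.78, 5.33, 6.8, 6.72, 5.99 and 4.61 FPKM. Here the litters were close (ratio of B1 to B2 1.08), and A was lower than every other library, with C 3.54 times A. Nr1d2 passed the trend test with a higher middle (adjusted p = 0.012), and Nr1d1 did not (0.124).

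Among the retinoic acid receptors, Rara was at 2.11, 2.63, 1.8, 4.32, 5.33, 5.15 and 5.39 FPKM. The values of A and B lay below those of C to F, and the intervals of A and F did not overlap. Rarb was at 1.28, 1.31, 1.65, 2.74, 3.16, 2.29 and 2.51 FPKM, and its share was highest in D (23.5%). Rarg was nearly flat, between 1.88 FPKM in C and 2.64 FPKM in B1. None of the 3 was classifiable, their widest intervals being 63.9% to 69.4% of the mean.

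Of the receptors for fatty acids, Ppard was expressed most, from 5.67 FPKM in A to 10.4 FPKM in B1. Its spread over segments was no larger than that between the litters, since B2 was at 5.96 FPKM. Pparg, which is known as the switch for fat cell formation and is a target of insulin-sensitizing drugs, was at 1.99, 2.7, 2.51, 0.999, 0.803, 1.06 and 0.525 FPKM. The 3 libraries of A and B were all above the 4 of C to F, and 32.7% of its expression lay in B against 6.58% in F. Ppara, the receptor that governs fatty acid oxidation in liver, was lower throughout, from 0.422 FPKM in D to 0.853 FPKM in A. The oxysterol receptors were represented by Nr1h2 (LXR beta), at 18.1 to 25.3 FPKM with no order that exceeded its intervals, and by Nr1h3 (LXR alpha), at 0.928 to 2.18 FPKM with the highest value in E.

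The RXR genes encode the common partners of the receptors above. Rxra was at 3.3, 5.41, 3.47, 5.23, 6.58, 7.63 and 8.06 FPKM. B1 was as high as C and B2 as low as A, while D, E and F were each above both litters. Rxrb was the most abundant of the 3, at 31.7, 44.4, 25.3, 25, 26, 26 and 29.4 FPKM, so that 1 litter of B was the highest library and the other among the lowest. Rxrg was at 0.57, 0.263, 0.336, 0.447, 0.79, 0.722 and 2.72 FPKM. Of its summed expression 49% lay in F, the largest share of any expressed member in 1 segment. The interval of Rxrg in F ran from 1.22 to 4.22 FPKM and did not overlap that of A (0.137 to 1), but overlapped that of D, which reached 1.41 FPKM, and met that of E, which reached 1.22 FPKM. Genes known from striatum, which lies under the deepest segment, were also highest in F, with a sum over the 7 listed of 219 FPKM there and 46.7 to 156 FPKM in the other libraries, and Drd2 and Adora2a, which mark its output neurons, were at 3.64 and 5.44 FPKM in F against 0.198 to 0.721 and 0.318 to 1.43 FPKM elsewhere. The part of striatal tissue in the level of Rxrg was not tested.

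Among the NR2 orphan receptors the COUP-TF genes stood out. Nr2f1 (COUP-TFI), which is known for patterning the cortex into areas, was at 101, 75, 96.2, 56.2, 40.9, 46.2 and 41.8 FPKM. All 3 libraries of A and B were above the other 4. Nr2f2 (COUP-TFII), which is known from vessels and from interneurons born in the caudal eminence, was at 4.11, 1.04, 1.17, 1.27, 1.34, 0.994 and 0.678 FPKM. A was the highest library by a ratio of 3.72 to segment B, and its share of the summed expression was 43.2%. Nr2f6 (EAR2) was at 15, 17.1, 8.95, 7.67, 6.83, 5.96 and 7.93 FPKM, with B1 at 1.91 times B2.

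Genes known from the meninges, which cover segment A, summed over 7 genes to 32.7 FPKM in A and to 4.4 to 7.11 FPKM in the other libraries, and vessel genes to 70.7 FPKM in A against 39.2 to 51.9 FPKM. Cldn5, a tight junction gene of vessels, was at 51 FPKM in A and 15.8 to 29.5 FPKM elsewhere. Of the 5 classifiable vessel genes 2 were called, Cldn5 higher in superficial segments and Kdr, at 1.22 FPKM in A and 2.22 FPKM in F, higher in deep ones. The 10 interneuron genes summed to 515 FPKM in A and to 489 to 716 FPKM elsewhere. The part of these cells in the level of Nr2f2 in A was not tested.

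The other NR2 genes varied less or the other way. Nr2c2 (TR4) was at 7.67, 16.5, 16.8, 16, 16.5, 18.7 and 17.1 FPKM, so that A was the lowest and the other 6 libraries were close together. Nr2c1 (TR2) was at 1.02, 1.27, 2.03, 2.1, 2.51, 2.82 and 3.04 FPKM. Nr2e1 (TLX), which is known for the upkeep of neural stem cells and is found in astrocytes, was nearly flat at 2.76 to 3.6 FPKM.

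Of the steroid receptors, the glucocorticoid receptor gene Nr3c1 was at 9.77, 19.1, 18, 19.4, 24.1, 27.4 and 24.5 FPKM. A was lower than every other library, the litters of B agreed within their intervals, and D, E and F were each above B and C. The mineralocorticoid receptor gene Nr3c2, whose product binds the same stress hormone with higher affinity, was at 2.46, 4.65, 3.96, 4.84, 5.84, 4.38 and 4.97 FPKM. Its values outside A lay within or near each other's intervals. The progesterone receptor gene Pgr was at 2.19, 8.93, 4.74, 6.19, 5.98, 6.31 and 5.82 FPKM, and again A was the lowest, while the 2 litters of B held both the highest value and the next lowest. Esr1, estrogen receptor alpha, lay between 0.0635 FPKM in B1 and 0.295 FPKM in F.

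The estrogen related receptors bind no estrogen and are known, with the coactivators of the Ppargc1 genes, for driving genes of mitochondrial respiration. Esrrg was at 2.53, 5.18, 5.51, 13, 13.9, 8.68 and 4.47 FPKM. C and D, the segments of layer 5, were above all other libraries, the litters of B were close (ratio of B1 to B2 0.939), and the ratio of D to A was 5.49. Esrra was at 15.2, 31, 16.9, 22.6, 23.1, 17.8 and 13.9 FPKM, with both C and D between the litters of B. Esrrb, at a much lower level, was highest in C (0.925 FPKM) and lowest in A (0.22 FPKM), with intervals that reached 0 in A, C and F.

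Of the remaining members, Nr4a3 (NOR1), an immediate early gene that neuronal activity induces, was at 0.694, 1.31, 0.835, 2.12, 3.32, 4.39 and 4.75 FPKM. Each segment from C to F was above both litters of B, and F was 6.84 times A. Nr6a1 (GCNF) stayed between 1.14 and 1.64 FPKM and overlaps an antisense gene over 29114 bases.

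**Figure D3:**
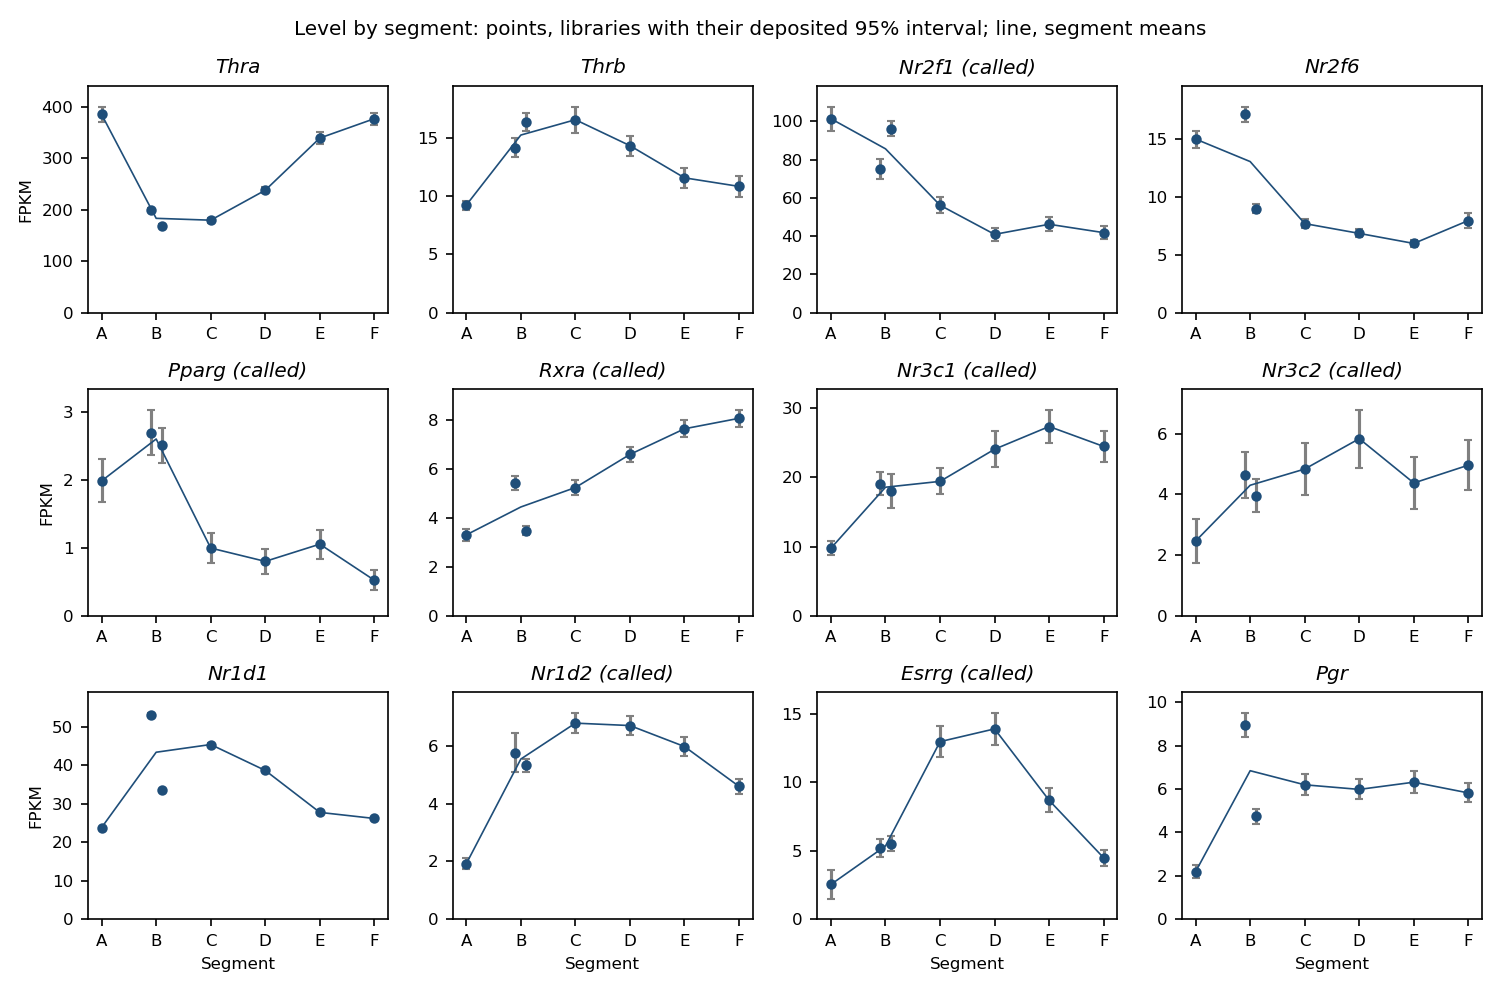
Level of 12 members by segment (horizontal axis, A to F; vertical axis, FPKM from 0). Points are libraries with the deposited 95% interval, and lines join segment values, with both litters averaged for B; panels marked "called" passed the trend test. Esrrg peaks in C and D at 13 and 13.9 FPKM, Nr3c1 is lowest in A at 9.77 FPKM, and the litters of B lie far apart for Nr2f6, Nr1d1 and Pgr.

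Shares divide the FPKM of a member in 1 segment by its total across all 6, taking the mean of both litters for B. The highest share lay in A for 6 of the 30 expressed members (Thra, Ppara, Nr1h2, Nr2f1, Nr2f2 and Nr2f6), in B for 7 (Rarg, Pparg, Rxrb, Nr2e1, Pgr, Esrra and Nr6a1), in C for 4 (Thrb, Nr1d1, Nr1d2 and Esrrb), in D for 3 (Rarb, Nr3c2 and Esrrg), in E for 3 (Nr1h3, Nr2c2 and Nr3c1) and in F for 7 (Rara, Ppard, Rxra, Rxrg, Nr2c1, Esr1 and Nr4a3). Of the 17 classifiable members 3, 5, 3, 2, 2 and 2 peaked in A to F in that order. Over all 11409 classifiable genes the shares in the same order were 20.9%, 7.98%, 10.6%, 9.72%, 18.9% and 31.9%. The ratio of the highest to the lowest segment had a median of 2.43 over the 17 members and 2.24 over all classifiable genes. With the libraries rescaled by the median of ratios, 22 of the 30 members kept their segment.

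**Figure D4:**
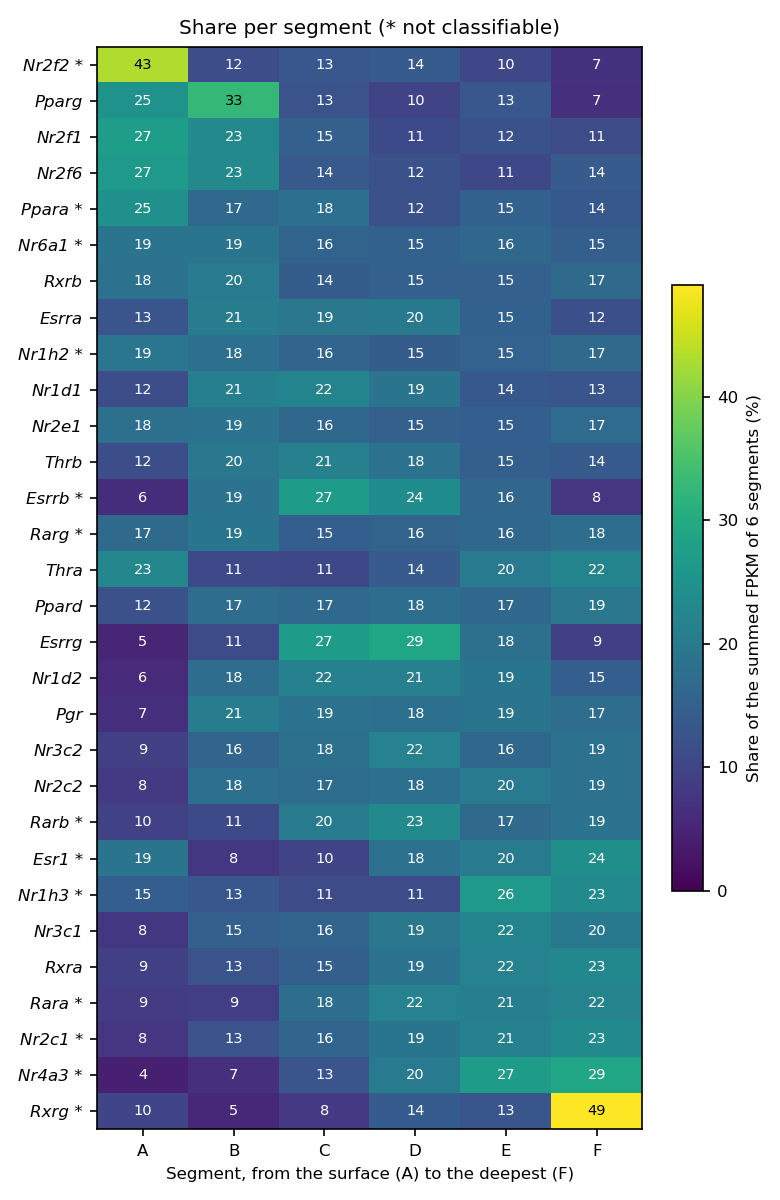
Share of expression per segment for the 30 members with a mean of at least 0.1 FPKM (columns, segments A to F; colour and printed number, percent of the summed FPKM of 6 segments; rows ordered by mean depth; * not classifiable). Nr2f2 has 43.2% of its expression in A, Rxrg 49% in F and Esrrg 27.1% and 29% in C and D.

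In the annotation used by the authors (mm9) Thra lies at chr11:98603125-98630320, Esrrg at chr1:189432670-190038764, Pparg at chr6:115372084-115440419, Nr2f1 at chr13:78328234-78339237, Rxra at chr2:27532721-27618477, Nr1d2 at chr14:19036568-19071641 and Nr3c2 at chr8:79423671-79768911, and their levels count reads over all annotated exons. Because strand was not kept, reads in an overlap with a gene on the other strand cannot be assigned to the member from their strand. Such overlaps exist for Nr2c2 with Mrps25 (3533 bases, Mrps25 mean 18.6 FPKM), for Nr2f6 with Ocel1 (5235 bases, 4.06 FPKM), for Nr2f1 with A830082K12Rik (1960 bases, 9.5 FPKM), for Nr3c2 with Gm10649 (850 bases) and for Esrra with Trmt112 (48 bases).

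A trend with depth was tested by a limma moderated F-test on log2(FPKM + 0.1) with a linear and a quadratic term in segment position, fitted to all 11409 classifiable genes with Benjamini-Hochberg adjustment over them. Each fit is described on the log2 scale by the end difference, which is the fitted value of F minus that of A, and by the bow, which is the fitted middle minus the mean of both ends. Of the members, 7 of 17 passed an adjusted p of 0.05, against 43.5% of all classifiable genes, so the share of members that passed is close to the background. The median end difference was 0.43 over the 17 members and 0.47 over all genes tested, and the median bow was 0.57 over the members and 0.17 over all genes.

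Higher in the deep segments were Rxra (end difference 1.29 ± 0.25, SE, adjusted p = 0.0168), Nr3c1 (1.15 ± 0.23, adjusted p = 0.0117) and Nr3c2 (0.70 ± 0.24, adjusted p = 0.0425). This class held 30.6% of all genes tested. Relative to the median gene these end differences were 0.82, 0.68 and 0.23, so for Nr3c2 most of the difference was shared with the median gene. The adjusted p-values above test both terms of the fit jointly, and not the end difference alone. Tested by the linear term alone, Rxra had an adjusted p of 0.0235, Nr3c1 of 0.0502 and Nr3c2 of 0.183. For Nr3c2 the bow (0.60 ± 0.22) was close in size to the end difference. The level of Nr3c2 was lowest in A, and E (4.38 FPKM) lay between the litters of B (4.65 and 3.96 FPKM). A steady rise with depth is therefore not read for Nr3c2. With rescaling by the median of ratios the adjusted p was 0.0881 for Rxra, 0.0603 for Nr3c1 and 0.179 for Nr3c2. With values centred by transcript GC content in each library the call stayed for Rxra, while Nr3c1 had an adjusted p of 0.56 and the end difference of Nr3c2 turned to -0.0042.

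Higher in the superficial segments were Pparg (end difference -1.99 ± 0.46, adjusted p = 0.0304) and Nr2f1 (-1.41 ± 0.25, adjusted p = 0.0106), a class with 5.38% of all genes tested. Relative to the median gene both differences were larger, at -2.46 and -1.88. Pparg had an adjusted p of 0.0727 without B2 (end difference -1.83), and Nr2f1 of 0.07 with centring by GC content (-1.31). Nr2f6 ran in the same direction (-1.19 ± 0.36) with an adjusted p of 0.0517, and was inside it with the median of ratios (0.0318) and with GC centring (0.016).

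Higher in the middle segments were Esrrg (bow 1.95 ± 0.23, adjusted p = 0.00411) and Nr1d2 (bow 1.26 ± 0.25, adjusted p = 0.012), and 5.07% of all genes tested fell in this class. The bow of Esrrg was above that of 99.3% of the genes tested and that of Nr1d2 above 96.7%. Esrrg was called in each setting in which it was tested for a bow, with a bow of 1.45 to 2.36, whereas Nr1d2 had an adjusted p of 0.0708 with GC centring and 0.107 without segment A. No member was called in the class with a lower middle, which held 2.47% of the genes tested. Thra had the lowest bow of the 17 classifiable members (-0.95 ± 0.30), which was -0.24 without segment A and -1.68 without segment F. In both of these settings the gene was called (adjusted p = 0.0485 and 0.0373), without A as higher in deep segments.

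Without segment A, the members called were Esrrg and Thra, 2 in all, with 1147 genes overall. The end difference, then extrapolated to A, was 1.30 for Rxra, -2.79 for Pparg and -1.73 for Nr2f1, as large as or larger than with A, while it was 0.79 for Nr3c1 and 0.39 for Nr3c2, and the bow of Nr1d2 was 0.66. Without segment F, Pparg (extrapolated end difference -1.69, adjusted p = 0.149) and Rxra (1.36, adjusted p = 0.0565) were not called, and the end difference of Nr3c2 was 0.17. The direction of calls depended on scale: of the 4968 genes called, 3493 were in the class higher in deep segments and 614 in that higher in superficial ones, which became 1624 and 1158 with the median of ratios and 1032 and 1441 with GC centring. Without B1, 13 members were called in place of 7, with Ppard, Nr1d1, Nr2c2, Nr2f6, Pgr and Esrra added. Calls over all 11409 genes rose as well, from 4968 to 6611, so the rise is not particular to the members.

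**Figure D5:**
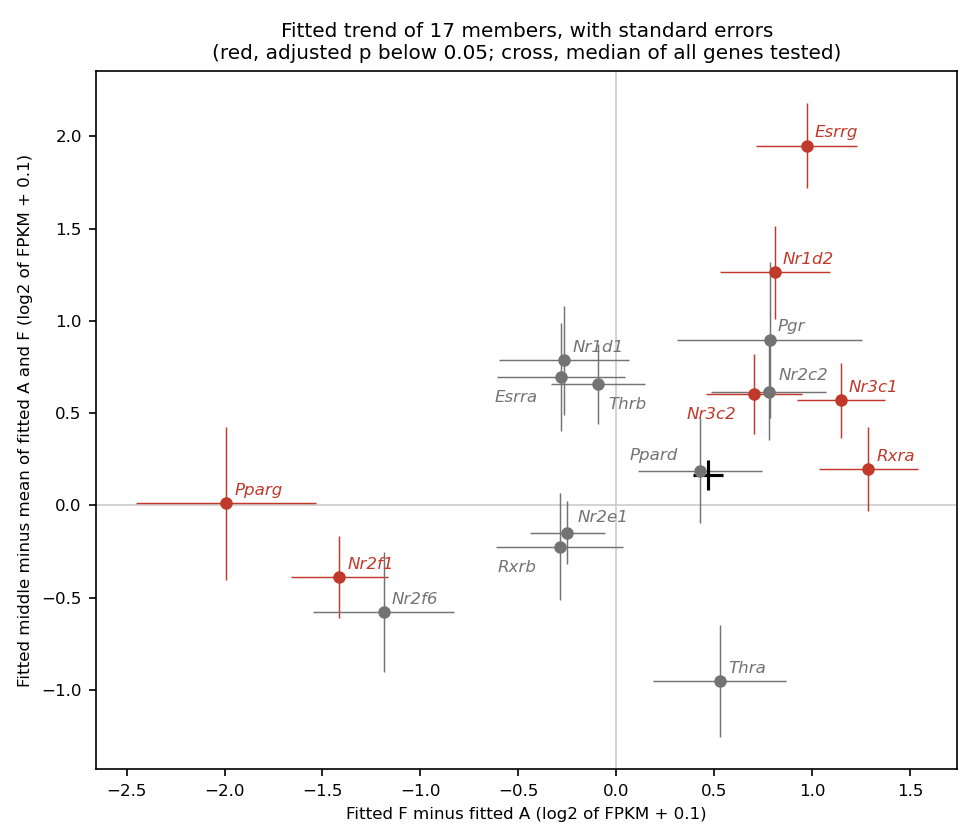
Fitted trend of the 17 classifiable members (horizontal axis, fitted F minus fitted A; vertical axis, fitted middle minus the mean of fitted A and F; both log2 of FPKM + 0.1; bars, standard errors). Red members passed an adjusted p of 0.05, and the cross marks the median of all 11409 genes tested, at 0.47 and 0.17. Esrrg has the largest bow (1.95) and Pparg the lowest end difference (-1.99).

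The 13 expressed members that were not classifiable were read from the same fit over all 17844 genes whose mean reached 0.1 FPKM, of which 34.5% were called. In that fit 11 of 30 members were called, and 5 of them came from these 13. Nr4a3 (end difference 2.87 ± 0.30, adjusted p = 0.00659), Rxrg (2.13 ± 0.40, 0.013), Nr2c1 (1.42 ± 0.27, 0.0202) and Rara (1.62 ± 0.35, 0.029) were higher in the deep segments, and Esrrb had a higher middle (bow 1.57 ± 0.31, 0.024). Rarb (adjusted p = 0.0562), Nr2f2 (0.116), Ppara (0.127), Nr1h3 (0.104) and Esr1 (0.164) did not pass, nor did Nr1h2, Rarg and Nr6a1, whose adjusted p lay between 0.411 and 0.775. The estimate of Esrrb rests on intervals as wide as 333% of its mean, and that of Rxrg on 360%.

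Neighbouring segments were compared by a ratio of at least 2 with nonoverlapping intervals, where a call against B needed both litters on the same side. From A to B, 4 of 17 classifiable members were called, all higher in B, against 18.1% of all classifiable genes in either direction (1407 higher and 658 lower in B). They were Pgr (ratio 3.13), Nr1d2 (2.89), Nr2c2 (2.17) and Esrrg (2.11). The transcripts of these 4 hold 41.8% to 46.1% of G and C. Nr3c1 (42.2%) and Thrb (44.1%) were also higher in B, with ratios of 1.9 and 1.65 below the limit. The part of base composition in this step was not tested. From B to C, Esrrg was higher in C (ratio 2.43) and Pparg was higher in B (2.61), 2 of 17 members against 3.22% of all genes. From C to D and from D to E no member was called, against 4.1% and 4.37% of all genes. From E to F, Pparg alone was called, higher in E (2.01), against 7.33% of all genes. Between the outer segments A and F, 8 of 17 members were called against 43.1% of all genes (3756 higher in F and 1156 higher in A). Pparg and Nr2f1 were higher in A (3.79 and 2.42). Nr1d2, Rxra, Nr2c2, Nr3c1, Nr3c2 and Pgr were higher in F (ratios 2.02 to 2.66). On the log2 scale the latter were 1.01 (Nr3c2) to 1.41 (Pgr), and the shift of the median gene from A to F was 0.43. Less this shift, none of them would reach a ratio of 2. No test stands behind these counts, since each segment but B was 1 library.

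The libraries B1 and B2 show how far such intervals understate the spread between replicates of segment B. Each is 1 litter and 1 library, so a difference between animals and one between library preparations cannot be told apart. For the litters, intervals did not overlap for 10 of 17 classifiable members, against 66.4% of all classifiable genes. Of the 10, 8 were higher in B1 (Thra, Ppard, Nr1d1, Rxra, Rxrb, Nr2f6, Pgr and Esrra) and 2 in B2 (Thrb and Nr2f1). Over all classifiable genes, intervals did not overlap for 7577, of which 3666 were higher in B2. The ratio of B1 to B2 reached 1.91 for Nr2f6, 1.88 for Pgr, 1.83 for Esrra and 1.76 for Rxrb, and none of the 17 differed 2-fold or more. The median absolute log2 ratio of the litters was 0.24 over the 17 members and 0.31 over all classifiable genes, for which the 95th percentile was 1.18. Of the members called for a trend, Rxra and Nr2f1 were among these 10, with ratios of B1 to B2 of 1.56 and 0.78, and the other 5 had ratios between 0.939 (Esrrg) and 1.17 (Nr3c2). The trend test itself counts the difference between the litters as error. The transcripts of Nr2f6, Rxrb, Rxra and Nr1d1 are rich in G and C (67.3%, 61.4%, 57% and 56.8%) and were higher in B1, whereas Nr1d2, Nr3c1 and Esrrg (41.8%, 42.2% and 42.5%) had ratios of B1 to B2 between 0.939 and 1.08. Other members did not follow this order: Pgr (46.1%), Esrra (50.3%) and Ppard (52.2%) had ratios of 1.88, 1.83 and 1.74, and Thra (59.8%) and Nr2f1 (60.2%) had 1.18 and 0.78. The part of base composition in these differences was not tested.

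Isoforms of a gene were compared as changing in opposite directions between 2 libraries, 1 up and another down by nonoverlapping intervals, over the 20 pairs other than B1 with B2. This held for all 3 members with at least 2 classifiable isoforms, Thra, Rxrb and Nr2f1, against 79.6% of the 2018 genes with at least 2 classifiable isoforms. Each of the 3 also changed in this way between B1 and B2, litters of the same segment. For Thra, 7 of the 20 pairs were called, among them A with F, where the isoform of 492 codons was lower and the isoform of 410 codons higher in A. For Rxrb 5 pairs were called, each of which included B1. Its isoform of 524 codons was at 40.6 FPKM in B1 and 16.3 to 24.3 FPKM in the other libraries, while that of 410 codons was at 3.77 FPKM in B1 and 7.35 to 9.21 FPKM in the others.

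For Nr2f1, the longest model (3207 nt, 420 codons) was at 22.6, 47.4, 19.1, 16.2, 14.6, 16.3 and 12.5 FPKM. A short model of 654 nt was at 57.4, 12.7, 56.2, 25.7, 16.1, 20 and 15.9 FPKM. B1 was thus the highest library for the first and the lowest for the second, and the sum of the isoforms, on which the level of the gene rests, was less uneven. The longer model alone was also higher in A and in both litters of B than in C to F. Thrb was carried by 2 models of 461 codons each, and the longer of them (5784 nt) gave from 60.1% (F) to 100% (A) of the sum. Esrrg had 2 main models in B to F, of which that of 435 codons gave 53.6% to 74.6% of the sum and that of 458 codons 25.4% to 46.4%. Both were highest in C and D, so the higher level in layer 5 was shared by these isoforms. In A, short models of 450 and 507 nt that are listed in no other library gave 26.9% and 35.2% of the Esrrg sum.

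The family has further genes in the mouse that are not members here. Of 15 that were looked up, 5 were classifiable and 2 of these were called, both in the class higher in superficial segments. A class is named after the larger of the end difference and the bow, and both genes were lower in A than in B and C. Rorb, an orphan receptor known as a marker of layer 4, was at 5.98, 17.8, 22.1, 12.6, 4.37, 2.23 and 2.27 FPKM (end difference -2.81 ± 0.78, adjusted p = 0.0396). Rora, its close relative, was at 9.43, 18.4, 21.7, 20.6, 11.5, 7.37 and 6.58 FPKM (-1.22 ± 0.42, adjusted p = 0.0373). Of the 15, 8 had a mean below 0.1 FPKM or were not listed: Nr1h4, Nr1i2, Hnf4a, Hnf4g, Nr2e3, Nr5a1, Nr0b1 and Nr0b2. Of 10 genes used to check the layers 9 were classifiable and 8 called. Cux2, a gene of the upper layers, was at 37.9, 43.5, 28.6, 9.17, 3.21, 2.44 and 2.82 FPKM, and Nxph4, a gene of layer 6b, was at 41.3 FPKM in F and 0.0547 to 6.2 FPKM elsewhere, so both followed the labels of the segments.

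Proteins that receptors recruit were looked at next. The counts of called genes in this and the following lists stand against 43.5% called over all classifiable genes, 30.6% as higher in deep segments, 5.38% as higher in superficial ones, 5.07% with a higher middle and 2.47% with a lower one. Of 13 coactivator genes 12 were classifiable and 8 were called, 7 of them higher in deep segments, with a median end difference of 0.79 over the 12 against 0.47 over all genes. Ncoa4 was at 3.33 FPKM in A and 12.5 FPKM in F (end difference 1.53 ± 0.24, adjusted p = 0.0058), and Kat2b at 0.61 and 3.7 FPKM (2.03 ± 0.28, adjusted p = 0.00585). Ppargc1b, a coactivator of the estrogen related receptors, ran the other way, from 9.61 FPKM in A to 2.9 FPKM in F (-1.49 ± 0.20, adjusted p = 0.00507). Of 10 corepressor genes 9 were classifiable and 2 were called, Tbl1xr1 and Sin3a, both higher in deep segments, with a median end difference of 0.33. Of 9 chaperone genes of steroid receptors 8 were classifiable and 3 were called, Hspa4, Ppid and Stip1, all higher in deep segments, with a median of 0.58.

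Of 9 genes of thyroid hormone supply 6 were classifiable and 4 called (43.5% over all genes). Crym, which encodes a protein that binds thyroid hormone in the cytosol, was at 1.56, 4.57, 5.09, 21.9, 34.3, 32.5 and 31 FPKM (end difference 4.41 ± 0.33, adjusted p = 0.00209). Ttr, a carrier of thyroid hormone made by choroid plexus, was at 25.4, 1.07, 1.42, 1.16, 7.7, 65.7 and 199 FPKM (adjusted p = 0.00926), high at both edges. Both were called higher in deep segments. Dio2, the enzyme that makes active hormone from its precursor, was called higher in superficial segments, with 16.9 FPKM in A, 21.8 FPKM in B2 and 10 FPKM in F (adjusted p = 0.0413). Dio3, which inactivates the hormone, had a mean below 0.1 FPKM and Dio1 was not listed.

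Of 12 genes of retinoid supply 6 were classifiable and 3 called. Rbp4, which carries retinol in blood, had a higher middle, with 5.04 FPKM in A, 19.3 FPKM in D and 9.31 FPKM in F (adjusted p = 0.00705). Cyp26b1, which degrades retinoic acid, was higher in deep segments, with 0.0755 FPKM in A and 1.61 FPKM in E (adjusted p = 0.00592), and Cyp26a1 had a mean below 0.1 FPKM.

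Of 8 genes of steroid and oxysterol metabolism 5 were classifiable and 3 called. Hsd11b1, which regenerates active glucocorticoid, was at 3.27, 9.82, 11.2, 20.8, 14.5, 5.98 and 4.67 FPKM (bow 2.13 ± 0.38, adjusted p = 0.0126). Cyp46a1, which makes the main oxysterol of the brain, was at 152 FPKM in A and 59 FPKM in F (adjusted p = 0.00619), and Srd5a1, steroid 5-alpha reductase, at 1.57 and 8.72 FPKM (adjusted p = 0.0058). Hsd11b2, Cyp19a1 (aromatase) and Cyp24a1 had means below 0.1 FPKM.

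Of 14 clock genes around Nr1d1 and Nr1d2, 13 were classifiable and 5 were called, against 43.5% over all genes. Bhlhe40 (bow 2.03 ± 0.35, adjusted p = 0.00989), Hlf (1.09 ± 0.27, adjusted p = 0.0307) and Arntl (0.79 ± 0.22, adjusted p = 0.0284) had a higher middle, in the same class as Nr1d2 (5.07% of all genes). Bhlhe40 was at 7.03, 23.8, 18.4, 31.3, 25.7, 9.69 and 6.94 FPKM. Arntl was lowest in A, at 4.69 FPKM, and at 8.47 to 11.2 FPKM in the others. Npas2 was called higher in deep segments and Dbp higher in superficial ones. The median bow of the 13 was 0.41, against 0.17 over all genes tested.

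Genes known to respond to the receptors' ligands gave no single direction, and their counts stand against 43.5% called and 30.6% higher in deep segments over all genes. Of 8 glucocorticoid responsive genes 7 were classifiable and 5 called, of which Sgk1, Dusp1 and Tsc22d3 were higher in deep segments, Zbtb16 had a higher middle and Nfkbia a lower one. Sgk1 was at 4.71 FPKM in A and 21 FPKM in F (end difference 2.16 ± 0.22, adjusted p = 0.0035), and Tsc22d3 at 9.31 and 25.1 FPKM (1.08 ± 0.27, adjusted p = 0.0238). All 6 thyroid hormone responsive genes were classifiable and 3 were called, Mbp and Cntn2 higher in deep segments and Nrgn, at 4621 FPKM in A and 1028 FPKM in F, higher in superficial ones (adjusted p = 0.0107). Of 8 LXR target genes 7 were classifiable and 5 called, 3 of them higher in deep segments. Scd1, an enzyme of fatty acid synthesis, was at 16.1 FPKM in A and 138 FPKM in F (adjusted p = 0.0199), and Abcg1, a sterol exporter, at 7.45 and 22.6 FPKM (adjusted p = 0.0244). Apoe was called higher in superficial segments, with 1485 FPKM in A and 424 FPKM in E (adjusted p = 0.00871), and Mylip had a higher middle. Of 8 PPAR target genes 3 were classifiable and 2 called, both higher in deep segments, opposite to Pparg, among them Cpt1a, which brings fatty acids into mitochondria, at 1.49 FPKM in A and 4.95 FPKM in F (adjusted p = 0.0346).

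Several of these genes are also known from glia, some of whose markers moved with depth. The 10 oligodendrocyte genes were all called higher in deep segments and summed to 329, 846, 855, 1656, 2221, 4124 and 12591 FPKM, and none was at 0 in a library. The 3 genes of their precursors summed to 4.37 FPKM in A and 30.8 in F. The 8 microglia genes summed to 44.2 to 89.7 FPKM, with 5 of 6 classifiable ones called. The 8 astrocyte genes summed to 306 FPKM in A, 452 to 494 FPKM in B1 to E and 656 FPKM in F. Of these 8, 3 were called, against 43.5% of all genes. Their median end difference was 0.44, against 0.47 over all genes tested. The 6 excitatory neuron genes summed to 1353 FPKM in F, 1942 in B1 and 1485 to 1564 FPKM in the other libraries, B2 (1531 FPKM) among them. The 10 interneuron genes summed to 489 FPKM in F and 716 in D, with 6 of 8 classifiable ones called and Pvalb highest in C at 145 FPKM. The part of these cell types in the members' levels was not tested.

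The hexamer AGGTCA, which many nuclear receptors bind, was looked for on both strands in the promoters of the reference (RefSeq, GRCm38.p6, windows of 300 bases around each start). It was found in 10 of 50 promoters of the 31 members with an entry (20%), against 16.3% of all 32851 promoters, and by gene in 9 of these 31 members against 18.1% of all 27025 genes. The palindrome CACGTG, the site of clock activators, was in 4 of these 50 (8%) and in 7.15% of all promoters, and in none of Nr1d1 or Nr1d2. The members called for a trend that hold the hexamer were Pparg, Rxra and Nr1d2. The promoters of Nr1d2 (chr14:18239057-18239356, minus strand) and of 1 start of Rxra (chr2:27709042-27709341, plus strand) are printed as examples of receptor genes that carry the letters of a receptor site, in capitals on either strand; a match of letters is not a binding site.
Nr1d2: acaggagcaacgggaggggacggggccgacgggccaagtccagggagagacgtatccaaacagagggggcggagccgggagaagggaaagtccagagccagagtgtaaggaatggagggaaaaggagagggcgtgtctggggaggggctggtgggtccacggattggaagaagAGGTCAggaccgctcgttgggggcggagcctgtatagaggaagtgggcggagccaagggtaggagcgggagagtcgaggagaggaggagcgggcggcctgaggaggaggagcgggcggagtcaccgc
Rxra: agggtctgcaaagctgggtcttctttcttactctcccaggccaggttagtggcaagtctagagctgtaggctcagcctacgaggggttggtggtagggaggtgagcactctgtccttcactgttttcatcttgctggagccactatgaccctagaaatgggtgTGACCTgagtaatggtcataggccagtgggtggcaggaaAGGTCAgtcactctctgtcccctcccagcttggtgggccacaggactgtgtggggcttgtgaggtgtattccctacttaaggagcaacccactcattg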

How the data were processed

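RNA of 7 S1 libraries was sequenced by the authors as paired ends of poly(A) RNA, without keeping the strand, and mapped to mm9 with TopHat 1.0.13. The FPKM deposited by the authors were estimated with Cufflinks 0.8.3 for genes and transcripts of Ensembl release 57, each with a 95% interval. Intervals cover estimation within a library and not variation between mice. The authors also deposited transcript coverage, a signal that is not scaled for depth, from which fragments were estimated with 2 ends of 50 nt. They deposited no fragment counts. Part of library F was read at a greater length, so its estimate is an upper value. The de novo loci and the 12 dorsal and lateral cortex samples were not used here.

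Genes not listed in a library were set to 0. Symbols came by identifier from GENCODE M21. Trends were tested with limma 3.58.1 in R 4.3.3 on log2(FPKM + 0.1), which understates changes of low genes, and the fit was first tested on simulated data. The limma p-values rest on 2 litters of segment B and on the departure of single libraries from a smooth curve. Other pseudocounts, interval limits, scales, GC centring and left-out libraries were tried as alternatives. Every member is named, and from each other list at most 4 genes past the threshold with the largest ratio of segments and a mean of at least 1 FPKM; Cyp26b1, Dbp, Nfkbia, genes named for a mean below 0.1 FPKM and markers named singly were chosen after their values were seen. Members and lists were chosen with earlier results of these data known. Some genes of these lists are counted but not reported here by name.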

Additional observations from a re-analysis of the deposited data

How the results depend on the processing

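The segments came from the same mice, but no paired analysis was possible because mice were pooled and segment B alone has replicate numbers. Of the 17 members tested, the 7 calls became 3 with an interval limit of 25% of the mean (11 members left to test) and with the linear term alone, 11 with an interval limit of 100% of the mean or with no limit at a mean of at least 0.1 FPKM (26 and 30 members tested), and 2 without segment A. Leaving out a litter of B gave 5 to 13 member calls and 4213 to 6611 calls over all genes. The 4968 calls over all genes became 3290 of 7452 genes tested with the 25% limit, 3256 of 10801 with GC centring, 2132 with the linear term alone and 1147 without segment A. With GC centring the end difference turned to -0.0089 for Ppard, -0.13 for Nr2c2 and -0.0042 for Nr3c2, and without segment A the bow of Pgr turned to -0.025, and none of these 4 was past the threshold there. The causes were not tested.

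The 7 calls of members over the 5 neighbouring steps became 13 at a limit of 1.5-fold and 0 at 3-fold. The 10 members whose litters differed became 0 at a limit of 2-fold. The shares of all genes at these changed limits are not given here, so these counts are not read as a result about the members. Under GC centring 11 of 17 classifiable members kept their highest segment. Members with isoforms in opposite directions went from 3 to 17 when isoforms with wide intervals were counted. The share of all genes under that setting is not given here, and it was 79.6% in the main setting. The 17 are therefore not read as a result about the members. Leaving out Thra and Nr1d1, whose genes overlap, kept the count of called members at 7, a setting chosen after seeing the data. Neither gene was among the 7, so this outcome was fixed in advance and does not bear on the overlap. Depth limits Vdr, Esr2 and Nr5a2, and the interval limit leaves 13 expressed members out of the main test.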
